A study of Mus musculus with 93 samples.

Results

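The Frizzled family consists of the 10 genes Fzd1 to Fzd10, chosen by name among the 24514 gene symbols of one table of read counts, and all 10 have a row in it. Each of the 93 libraries was made from one well of 10 sorted cells. The cells came from mice or from one embryonic stem cell (ESC) line carrying the same alleles, Hcn4-GFP, Tbx1-Cre and Ai9. GFP is made where Hcn4, a channel gene of the first heart field, is active, and RFP stays on in every descendant of a cell in which Tbx1-Cre acted, which includes the second heart field and pharyngeal tissue. Regions dissected from embryos gave 5 GFP+ and 4 RFP+ libraries. The sample titles place these embryos at E8.5, whereas the extraction protocol and the study's methods place them at E7.75. ESC spheroids, induced with Activin A and Bmp4 (the growth protocol also lists Wnt3A, Wnt5A and Wnt11, without tying any to a sample) and taken at day 5.5 of differentiation, gave 38 GFP+ and 46 RFP+ libraries. Nothing in the labels ties wells to embryos or to differentiations, so n counts wells and the p-values measure the spread between wells. By their well names, spheroid RFP+ and GFP+ wells filled separate plate columns, so column and population cannot be told apart in spheroids. Embryo GFP+ wells lay in rows A to E of column 12, and embryo RFP+ wells in rows F to H of columns 11 and 12. Plate row and population therefore cannot be told apart in embryos. Embryo and spheroid wells shared column 11 alone, which held embryo RFP+ and spheroid GFP+ wells. Within each reporter the sources shared no column, so column and source cannot be told apart there. Whether all wells were on the same plate is not stated.

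Frizzled proteins are cell surface receptors that cross the membrane several times and bind Wnt ligands through a cysteine-rich outer domain. With the co-receptors Lrp5 or Lrp6 they protect beta-catenin from destruction, and with Ror, Ryk or the planar polarity proteins they steer cell shape and movement instead. Every route starts with recruitment of a Dishevelled protein to the inner face of the receptor. In the early heart, canonical Wnt signals are known to keep progenitors dividing and noncanonical ones to accompany their differentiation. By sequence the family falls into the subfamilies Fzd1, Fzd2 and Fzd7, then Fzd5 and Fzd8, then Fzd3 and Fzd6, and last Fzd4, Fzd9 and Fzd10.

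The stretch of coding sequence that specifies the conserved lysine, threonine and nearby tryptophan just inside the last membrane pass is given for 8 members because it shows what they share and where Fzd3 and Fzd6 part from the others. This stretch is known to be needed for Dishevelled binding. Each run is 36 bases of the sense strand from GENCODE M21 transcripts on GRCm38 (mm10), with the lysine, threonine and tryptophan codons in capitals.
Fzd1: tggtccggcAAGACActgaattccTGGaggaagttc
Fzd7: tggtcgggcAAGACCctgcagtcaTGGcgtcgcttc
Fzd5: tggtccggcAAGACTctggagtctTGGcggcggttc
Fzd3: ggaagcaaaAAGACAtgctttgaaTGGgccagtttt
Fzd6: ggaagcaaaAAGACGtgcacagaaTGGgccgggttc
Fzd4: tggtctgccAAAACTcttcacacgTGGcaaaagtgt
Fzd9: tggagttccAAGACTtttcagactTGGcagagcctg
Fzd10: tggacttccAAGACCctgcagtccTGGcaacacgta
The runs lie at chr5:4755697-4755732 for Fzd1, at chr1:59484598-59484633 and chr1:64735002-64735037 for Fzd7 and Fzd5, at chr14:65212098-65212133 and chr15:39033940-39033975 for Fzd3 and Fzd6, and at chr7:89408232-89408267, chr5:135249407-135249442 and chr5:128602787-128602822 for Fzd4, Fzd9 and Fzd10. Fzd1, Fzd3, Fzd5 and Fzd9 are on the minus strand and the others shown on the plus strand. Fzd5 and Fzd7 shared 30 of 36 bases, Fzd3 and Fzd6 shared 29 and Fzd1 and Fzd7 shared 26, whereas Fzd1 and Fzd3 shared 15. Reads of such similar genes could be assigned to the wrong member. Of all 36-base windows, the shortest read kept, 0.769% of Fzd1, 0.662% of Fzd2 and 0.356% of Fzd7 also occur in another member, and none of the other 7 members' windows do.

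Total reads per library ran from 712732 to 2525460 in embryo GFP+, from 1246546 to 1479957 in embryo RFP+, from 6288 to 4371849 in spheroid GFP+ and from 445071 to 5658882 in spheroid RFP+ wells. The shallowest well, spheroid GFP+ C9, was kept, and the next in its group had 828193 reads. Embryo GFP+ libraries held reads of 6189 to 8302 genes, against 10263 to 13052 in embryo RFP+, and the ranges did not overlap. Levels are CPM, read counts relative to library size with TMM scaling, and a count of 3 reads, the limit that a count of 0 allows, was worth 1.31 to 3.73 CPM in embryo GFP+ and 2.11 to 2.56 CPM in embryo RFP+ libraries. The genes behind the reporters had their higher means where the labels place them, although single wells overlapped. Hcn4 averaged 14.9 ± 16.7 CPM (SD, n = 5) in embryo GFP+ and 0.36 ± 0.721 (n = 4) in embryo RFP+, and 7.32 ± 4.42 (n = 38) against 0.447 ± 0.672 (n = 46) in spheroids, while Tbx1 averaged 0, 3.96, 0.0301 and 2.52 CPM in the same order. The summed level of 8 heart muscle genes was 17840 to 51880 CPM in embryo GFP+, 1187 to 2275 in embryo RFP+, 0 to 1267 in spheroid GFP+ and 14.1 to 137.7 in spheroid RFP+ wells, with medians of 52.7 and 58.4 CPM in the spheroid populations. The highest spheroid GFP+ well thus reached the range of embryo RFP+ libraries. A summed list of 8 endoderm markers was 663.8 to 2599 CPM in spheroid GFP+ and 56.4 to 475.9 in spheroid RFP+ wells. That order came from the epithelial genes Krt8, Epcam and Cldn6, while the endoderm factor Foxa2 was higher in RFP+ by a log2 fold change of 1.88 (edgeR adjusted p 3.91e-06). Summed pluripotency markers were 70.7 to 1677 CPM in spheroid GFP+ and 7.33 to 571.6 in spheroid RFP+ wells. In 10-cell wells, fewer cells of a type and less RNA per cell cannot be told apart.

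Across all populations the family's signal was carried by 4 members. Per kilobase of exon, Fzd1, Fzd2, Fzd3 and Fzd7 together made up most of the summed Frizzled CPM in each group, and Fzd9 had next to none. The leading receptor differed. In embryo RFP+ libraries Fzd2 held 43.4 ± 7.88% of the per-kilobase signal (SD, n = 4) and came first in 4 of 4 libraries. In embryo GFP+ libraries the leader changed from well to well, Fzd7 in 2, Fzd3 in 2 and Fzd1 in 1, and the share of Fzd3 ran from 0 to 58.1%. In spheroid GFP+ wells over 100000 reads, Fzd3 led in 17, Fzd7 in 16 and Fzd2 in 4 of 37, and in spheroid RFP+ wells Fzd3 led in 29, Fzd2 in 14 and Fzd7 in 3 of 46. The minor members took a larger share in spheroid GFP+ wells, where Fzd6 held 8.28 ± 4.21%, Fzd5 4.81 ± 3.16% and Fzd10 4.79 ± 3.24% (n = 37), than in spheroid RFP+ wells, where they held 1.74 ± 1.23%, 0.855 ± 0.741% and 2.28 ± 1.61% (n = 46). These shares are a description without a test. The summed signal was 73.7 ± 26.9 CPM per kilobase in embryo GFP+, 70.9 ± 10.5 in embryo RFP+, 31.5 ± 8.22 in spheroid GFP+ and 63.1 ± 6.69 in spheroid RFP+ libraries.

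**Figure D1:**
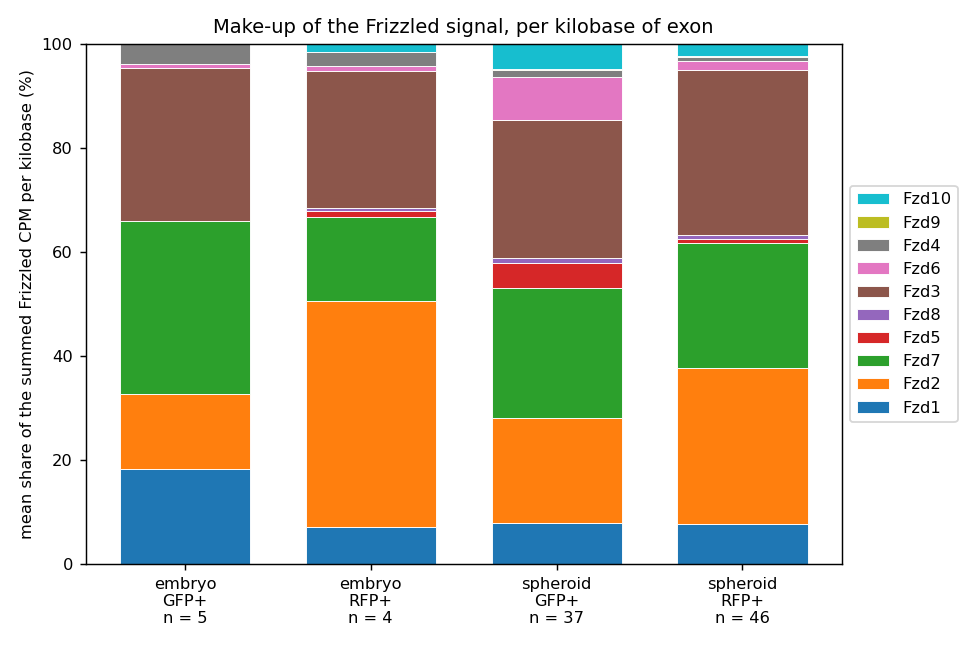
Mean share of each Frizzled gene in the summed Frizzled CPM per kilobase of exon (percent, vertical axis) in the 4 populations, with spheroid GFP+ limited to the 37 wells over 100000 reads. Fzd2 takes 43.4% in embryo RFP+ libraries, and Fzd6, Fzd5 and Fzd10 are widest in spheroid GFP+ wells at 8.28%, 4.81% and 4.79%.

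The number of family members with at least 1 read in a well had a median of 4 in embryo GFP+ (range 4 to 6), 9 in embryo RFP+ (6 to 9), 9 in spheroid GFP+ (7 to 10 without C9, which had 1) and 9 in spheroid RFP+ wells (7 to 10). After thinning each well over 100000 reads to 445071 reads, the expected number was 4.31 ± 0.692 (SD, n = 5), 7.22 ± 1.66 (n = 4), 7.64 ± 0.765 (n = 37) and 7.59 ± 0.63 (n = 46). Fzd5, Fzd8, Fzd9 and Fzd10 had no read in any of the 5 embryo GFP+ libraries, and the Wilson 95% interval of a share of 0 of 5 reaches 43.5%. Such gaps were common in those libraries. Among the 4096 genes whose mean CPM in spheroid GFP+ wells lay between those of Fzd8 and Fzd6, 1.84 to 12.3, 43.8% had no read in any embryo GFP+ library and 12.7% in any embryo RFP+ library. Of the 6 members in that range, Fzd5, Fzd8 and Fzd10 were among the former and none among the latter.

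**Figure D2:**
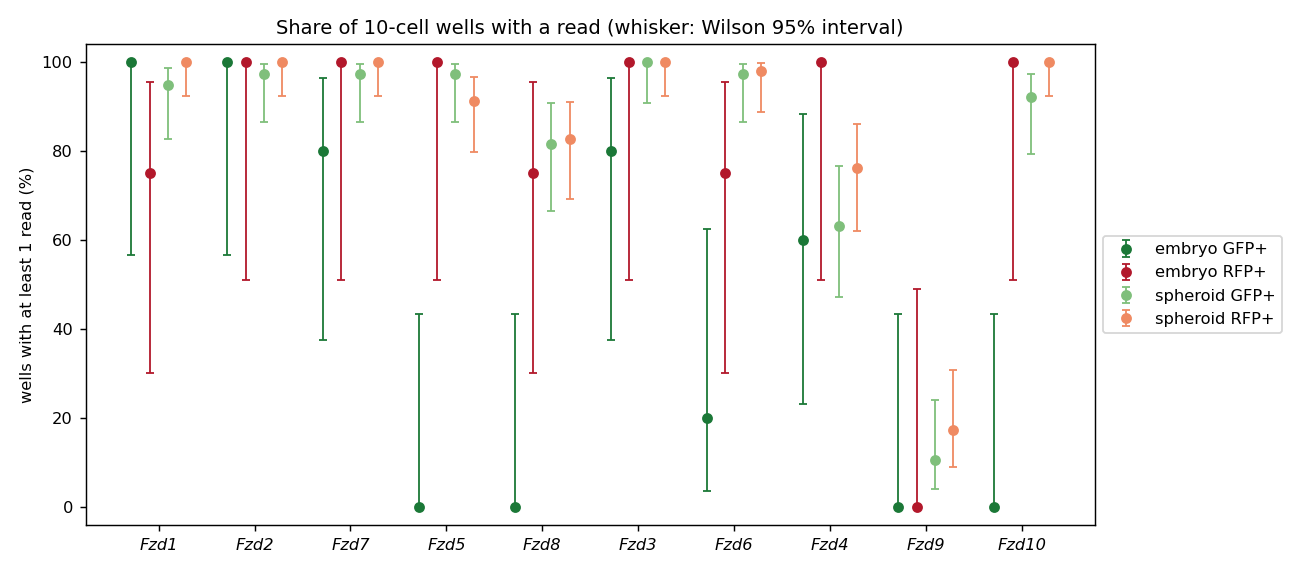
Percent of wells with at least 1 read (vertical axis) for each Frizzled gene in embryo GFP+ (n = 5), embryo RFP+ (n = 4), spheroid GFP+ (n = 38) and spheroid RFP+ wells (n = 46), with Wilson 95% intervals that cover counting of wells only. Fzd5, Fzd8 and Fzd10 stand at 0% in embryo GFP+ and at 75% or more in the other groups, and Fzd9 is at 17.4% or less throughout.

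Comparisons between populations used edgeR's quasi-likelihood test on the counts, with Benjamini-Hochberg adjustment over all genes tested and a call at an adjusted p under 0.1. RFP+ against GFP+ asks how the heart fields differ, once in embryos and once in spheroids. In spheroids 77.9% of 9940 tested genes were called, 37.8% higher and 40.1% lower in RFP+, so a call is by itself little information there and size and direction are given. The 6 members tested, all called, split by direction. Fzd1, Fzd2, Fzd3 and Fzd7 were higher in RFP+, Fzd5 and Fzd6 were higher in GFP+, and the other 4 were under the filter on low counts. In embryos 10.1% of 8503 tested genes were called, 6.21% higher and 3.88% lower in RFP+, and 0 of the 5 members tested were among them. At an unadjusted p under 0.05 edgeR also gave 0 of 5, against 1377 of all 8503 genes tested, so 0 of 5 says little. DESeq2, which called 17.7% of all genes, called 1 member, Fzd5, edgeR without the filter (13.2% of all genes) called 2, Fzd5 and Fzd10, and edgeR with adjusted deviances (20.8% of all genes) called 1, Fzd2. The median log2 fold change was 0.85 over the 6 members tested in spheroids against -0.02 over all genes, and -0.32 over the 5 tested in embryos against 0.09. These medians cover different members, in embryos Fzd1, Fzd2, Fzd3, Fzd4 and Fzd7. Fzd5, Fzd8 and Fzd10, read in embryos only in RFP+ libraries, were under the filter there and do not enter the embryo median.

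**Figure D3:**
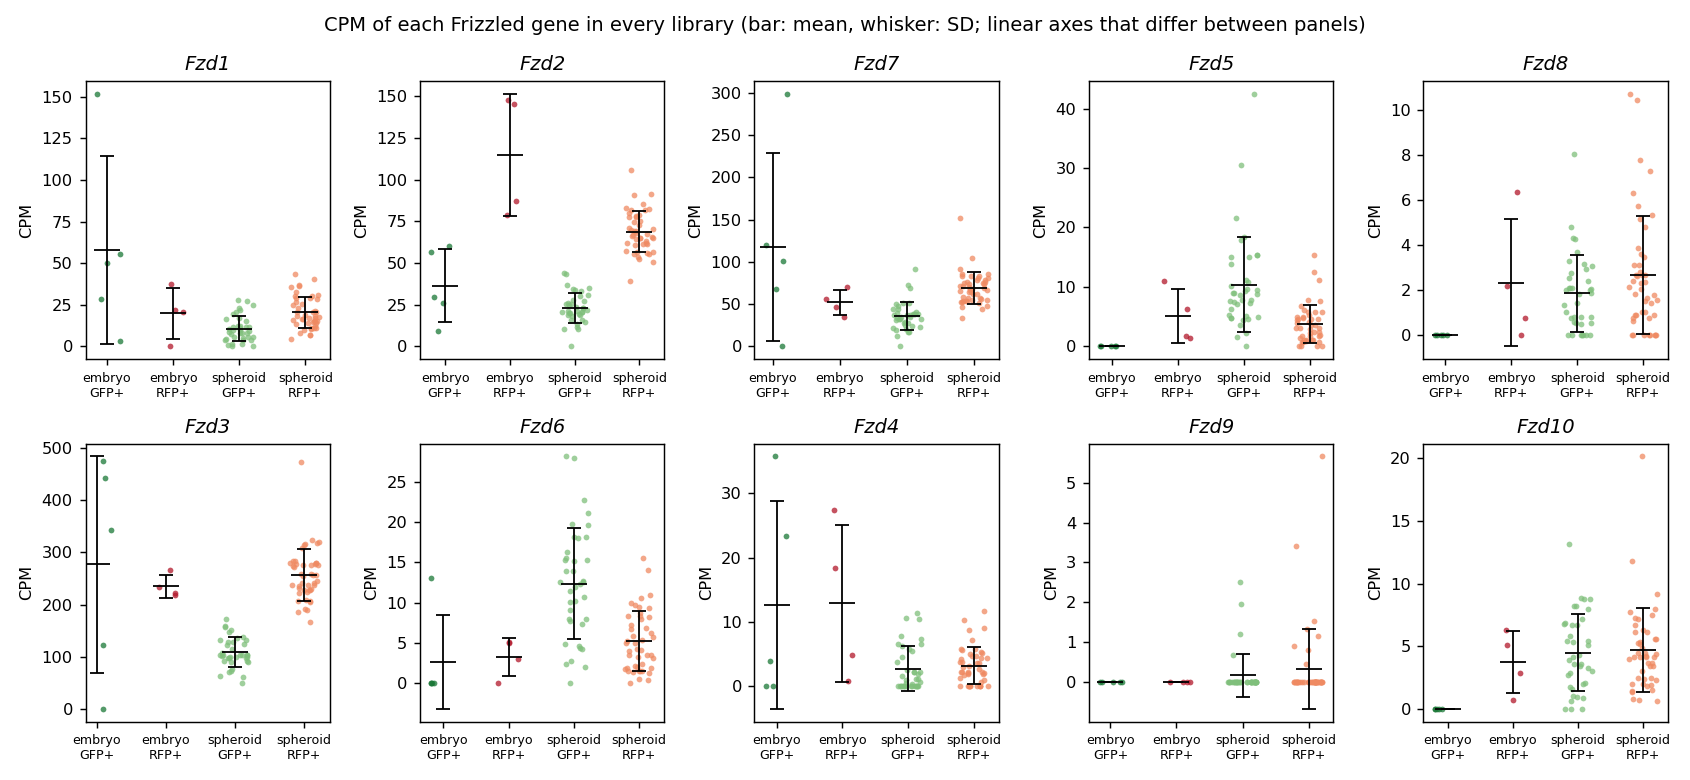
CPM of each Frizzled gene (vertical axis, linear, with its own range in each panel) in every library of the 4 populations, with the mean as a bar and the SD as a whisker. All 4 embryo RFP+ libraries lie above all 5 embryo GFP+ libraries for Fzd2, Fzd5 and Fzd10. The same holds for 11.9% of the 15111 genes with reads in embryos, and the reverse for 2.03%. Single embryo GFP+ libraries are at 0 for Fzd3 and Fzd7.

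Fzd2 (chr11:102604396-102608058, plus strand, a single exon), a receptor for Wnt5a as well as canonical ligands, had its higher mean in RFP+ libraries in both sources. It measured 56.8, 9.15, 26.1, 29.7 and 60.4 CPM in embryo GFP+ libraries A12 to E12, and 78.8, 87.3, 145.2 and 147.7 CPM in embryo RFP+ libraries F12, G11, G12 and H11. Every RFP+ embryo library was above every GFP+ one, which held for 11.9% of the 15111 genes with reads in these libraries. The reverse held for 2.03%. The edgeR log2 fold change of 1.60 (SE 0.81) was not called, with an adjusted p of 0.384, while the exact permutation test on log2 CPM gave an unadjusted two-sided p of 0.0238 (difference 1.82). In spheroids Fzd2 had a lowest, median and highest level of 0, 21.6 and 44.3 CPM in GFP+ wells (n = 38) and of 39.3, 67.1 and 105.5 CPM in RFP+ wells (n = 46). The 0 was C9, and the next lowest GFP+ well was at 10.3 CPM. Only 1 RFP+ well lay at or below the highest GFP+ well, and the log2 fold change was 1.49 (SE 0.09), with an edgeR adjusted p of 1.73e-29. Means by plate column ran from 20.3 to 26.8 CPM over the 5 GFP+ columns and from 61.3 to 77 CPM over the 6 RFP+ columns.

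Fzd7 (chr1:59482424-59486955, plus strand, a single exon), known as a main Wnt receptor of pluripotent stem cells, measured 299.2, 119.8, 100.8, 67.4 and 0 CPM in embryo GFP+ A12 to E12 and 35.4, 46.5, 70.9 and 56.2 CPM in embryo RFP+ F12, G11, G12 and H11. The GFP+ libraries thus spanned the RFP+ ones from both sides, and library E12 had no read of Fzd7 among 57 reads of Fzd2. The log2 fold change was -1.19 (SE 1.11), with an edgeR adjusted p of 0.763. In spheroids Fzd7 had a lowest, median and highest level of 0, 34.4 and 92 CPM in GFP+ and of 34.1, 67.7 and 152 CPM in RFP+ wells. It was higher in RFP+, by a log2 fold change of 0.85 (SE 0.10) with an edgeR adjusted p of 3.33e-12, and 45 of 46 RFP+ wells lay above the GFP+ median.

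Fzd1 (chr5:4753839-4758035, minus strand, a single exon), which overlaps in function with Fzd2 during palate and heart septum formation, measured 50.2, 3.05, 151.8, 55.3 and 28.6 CPM in embryo GFP+ A12 to E12 and 37.6, 20.4, 0 and 21.6 CPM in embryo RFP+ F12, G11, G12 and H11. The ranges overlapped, and the log2 fold change was -1.61 (SE 1.44), with an edgeR adjusted p of 0.749. In spheroids Fzd1 had a lowest, median and highest level of 0, 9.58 and 28 CPM in GFP+ and of 4.19, 18.1 and 43.5 CPM in RFP+ wells. It was higher in RFP+ by a log2 fold change of 0.84 (SE 0.19), with an edgeR adjusted p of 4.83e-05. The overlap was wide, with 34 of 46 RFP+ wells at or below the highest GFP+ well, and plate column means overlapped too.

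The 300 bases around the RefSeq start sites of Fzd1 and Fzd7, higher in RFP+ spheroid wells, and of Fzd5, higher in GFP+ ones, show what the promoters of members that moved apart look like. They are from GRCm38.p6, 250 bases before to 50 after the start, at chr5:4758167-4758466 (minus strand), chr1:59481897-59482196 (plus strand) and chr1:64737701-64738000 (minus strand). Capitals mark the words CTTTGA and CTTTGT, forms of the core that Tcf/Lef factors bind, and AGATAA, the core of Gata sites, on either strand, and no matches overlapped.
Fzd1: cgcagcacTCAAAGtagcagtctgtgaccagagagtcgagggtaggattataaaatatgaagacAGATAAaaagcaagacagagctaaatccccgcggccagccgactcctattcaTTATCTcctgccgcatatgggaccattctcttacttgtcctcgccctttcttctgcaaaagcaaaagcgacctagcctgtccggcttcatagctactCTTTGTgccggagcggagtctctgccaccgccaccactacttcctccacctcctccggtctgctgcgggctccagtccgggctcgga
Fzd7: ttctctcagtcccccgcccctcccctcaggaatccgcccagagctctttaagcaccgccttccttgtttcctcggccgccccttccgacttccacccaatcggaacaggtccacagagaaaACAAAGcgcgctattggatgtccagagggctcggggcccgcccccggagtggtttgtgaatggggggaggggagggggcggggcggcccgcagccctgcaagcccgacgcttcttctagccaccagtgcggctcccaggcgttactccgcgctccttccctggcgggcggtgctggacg
Fzd5: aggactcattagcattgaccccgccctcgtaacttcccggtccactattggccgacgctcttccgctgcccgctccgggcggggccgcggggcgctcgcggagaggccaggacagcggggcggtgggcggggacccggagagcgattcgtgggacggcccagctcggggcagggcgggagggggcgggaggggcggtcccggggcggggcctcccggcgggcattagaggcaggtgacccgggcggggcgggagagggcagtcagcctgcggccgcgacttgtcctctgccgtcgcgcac
Fzd1 held CTTTGA 1 time, CTTTGT 1 time and AGATAA 2 times, Fzd7 held CTTTGT 1 time, and Fzd5 held none of the 3. In all 32851 promoters of the set, 16% held CTTTGA, 18.7% CTTTGT and 11.2% AGATAA. The GC content was 54% for Fzd1, 66.7% for Fzd7 and 75.7% for Fzd5, against a median of 52.7%. A matched word is a description and not a binding site. Promoters of Fzd4, Fzd9 and Fzd10 were also in the set and held none of the 3 words. The set had no entry for Fzd2, Fzd3, Fzd6 or Fzd8.

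Fzd5 (chr1:64730558-64737751, minus strand, with its coding sequence in 1 of 2 exons), needed for yolk sac vessels and acting in eye and gut, went the other way in spheroids. It had a lowest, median and highest level of 0, 8.71 and 42.5 CPM in spheroid GFP+ (next to C9, the lowest was 1.56) and of 0, 3.11 and 15.4 CPM in spheroid RFP+ wells. It was higher in GFP+, with a log2 fold change of RFP+ against GFP+ of -1.54 (SE 0.24) and an edgeR adjusted p of 1.6e-08. Of 46 RFP+ wells 43 lay below the GFP+ median, and column means were 7.42 to 14 CPM in GFP+ against 1.69 to 5.23 CPM in RFP+. In embryos the order was the opposite. Fzd5 had 0 reads in 5 of 5 GFP+ libraries and 15, 9, 2 and 2 reads, or 11.1, 6.34, 1.71 and 1.44 CPM, in RFP+ F12, G11, G12 and H11. Its mean in embryo RFP+ was 5.13 ± 4.54 CPM (SD, n = 4). That was at least 1.99-fold higher than the limit of 3 reads per GFP+ library, averaged over those libraries. Without F12 it was at least 1.23-fold higher. The averaged limit was 2.58 CPM, and RFP+ libraries G12 and H11 lay below it. The exact permutation p was 0.00794, unadjusted and the smallest that 5 against 4 allows. Fzd5 was under edgeR's filter in embryos. DESeq2 called it at an adjusted p of 0.0529, and edgeR without the filter at 0.0651. An antisense transcript, Gm38058, shares 1233 exonic bases with Fzd5 and is not a row of the table, and whether counting used strand is not given in the sources used here.

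Fzd8 (chr18:9212163-9218136, plus strand, a single exon), the nearest relative of Fzd5, was low everywhere. It had 0 reads in 5 of 5 embryo GFP+ libraries and 1, 9, 0 and 3 reads in embryo RFP+ F12, G11, G12 and H11. The mean of 2.31 CPM in embryo RFP+ was below the limit of 2.58 CPM in GFP+, so no fold is given. The exact permutation p in embryos was 0.0476, unadjusted. Fzd8 was under edgeR's filter between GFP+ embryo and spheroid cells, where the exact permutation p was 0.0021 (difference -1.15), and it was called lower in embryos by DESeq2 (adjusted p 0.00518) and by edgeR without the filter (0.000963). In spheroids it averaged 1.84 ± 1.70 CPM (SD, n = 38) in GFP+ and 2.64 ± 2.61 CPM (n = 46) in RFP+ wells and was detected in 31 of 38 and 38 of 46. The permutation test with 100000 resamples gave an unadjusted p of 0.186, so a difference was not detectable at this depth. The pattern of Fzd5 in spheroids was thus not seen in its nearest relative, though the difference between both genes was not tested.

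Fzd3 (chr14:65192449-65262463, minus strand, 7 exons), known for axon guidance and planar polarity, had the highest mean and median CPM of the family in all 4 groups. Part of this is length, since its exons cover 12804 bases, and per kilobase it averaged 20.1 CPM in spheroid RFP+ wells beside 18.8 for Fzd2. In embryos it measured 123.4, 342.9, 442.9, 0 and 474.7 CPM in GFP+ A12 to E12 and 221.7, 233.8, 266.5 and 219.1 CPM in RFP+ F12, G11, G12 and H11. Library D12 had no read of Fzd3, although 3 reads would have been 1.39 CPM there. The log2 fold change was -0.32 (SE 0.99), with an edgeR adjusted p of 0.966. In spheroids Fzd3 had a lowest, median and highest level of 49.7, 102.8 and 173.3 CPM in GFP+ and of 167.3, 255.8 and 472.7 CPM in RFP+ wells. The populations were almost separate, with 1 RFP+ well at or below the highest GFP+ well. The log2 fold change was 1.21 (SE 0.07), with an edgeR adjusted p of 6.33e-30.

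Fzd6 (chr15:39006034-39038188, plus strand, 7 exons), the partner of Fzd3 in planar polarity of skin and in neural tube closure, ran against Fzd3 in spheroids. It had a lowest, median and highest level of 0, 12.4 and 28.2 CPM in GFP+ (2.03 without C9) and of 0, 4.56 and 15.5 CPM in RFP+ wells. It was higher in GFP+, with a log2 fold change of -1.29 (SE 0.21) and an edgeR adjusted p of 6.74e-08, and column means of 10.2 to 14.9 CPM in GFP+ lay above 3.73 to 6.98 CPM in RFP+. In embryos it was read in GFP+ library B12 alone, with 30 reads or 13.1 CPM, and in RFP+ F12, G11 and H11 with 4, 7 and 7 reads. The exact permutation p in embryos was 0.444. The epithelial genes Krt8, Epcam and Cldn6 were higher in GFP+ wells too, with log2 fold changes of RFP+ against GFP+ of -2.78, -2.13 and -1.50, and Foxa2 was lower there. Their part in the values of Fzd5 and Fzd6 was not tested. An antisense transcript, Gm26704, shares 152 exonic bases with Fzd6.

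Fzd4 (chr7:89404355-89413134, plus strand, 2 exons), the receptor of Norrin in retinal vessels, measured 0, 3.92, 0, 35.8 and 23.3 CPM in embryo GFP+ A12 to E12 and 18.4, 4.93, 0.854 and 27.4 CPM in embryo RFP+ F12, G11, G12 and H11. The groups overlapped fully, with a log2 fold change of -0.03 (SE 1.61) and an edgeR adjusted p of 0.998. The sign turned to 0.01 with total counts and 0.07 with no filter. In spheroids Fzd4 averaged 2.75 ± 3.44 CPM (SD, n = 38) in GFP+ and 3.2 ± 2.92 CPM (n = 46) in RFP+ wells, and the permutation p was 0.196.

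Fzd10 (chr5:128600844-128604093, plus strand, a single exon), known from the dorsal neural tube and limb, had 0 reads in 5 of 5 embryo GFP+ libraries and 1, 9, 6 and 4 reads, or 0.737, 6.34, 5.13 and 2.88 CPM, in embryo RFP+ F12, G11, G12 and H11. The mean of 3.77 ± 2.48 CPM (SD, n = 4) was at least 1.46-fold higher than the limit in GFP+, and at least 1.13-fold higher without G11. That averaged limit was 2.58 CPM, and RFP+ library F12 lay below it. The exact permutation p was 0.00794, and edgeR without the filter gave an adjusted p of 0.0752 and DESeq2 0.103. In spheroids Fzd10 had a lowest, median and highest level of 0, 4.04 and 13.2 CPM in GFP+ and of 0.683, 4.17 and 20.2 CPM in RFP+ wells, and the permutation p was 0.543. Fzd9 (chr5:135248938-135251230, minus strand, a single exon), studied mostly in brain and bone, had no read in any of the 9 embryo libraries. It was read in 4 of 38 spheroid GFP+ wells, 10.5% (Wilson 95% interval 4.17 to 24.1%), and in 8 of 46 spheroid RFP+ wells, 17.4% (9.09 to 30.7%).

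The embryo libraries bear on how close the spheroid cells came to their counterparts, compared within each reporter. For RFP+ cells 42.6% of 11147 tested genes were called, 20.1% higher and 22.5% lower in embryos, and 2 of the 9 members tested were called, both higher in embryos. Fzd2 was higher by a log2 fold change of 0.75 (SE 0.14), with an edgeR adjusted p of 2.07e-05 and an exact permutation p of 0.000278. Fzd4 was higher by 2.00 (SE 0.64), with an edgeR adjusted p of 0.012. Without embryo library H11 Fzd4 was no longer called, with an edgeR adjusted p of 0.217. Fzd3 differed by -0.12 (SE 0.13, edgeR adjusted p 0.516) and Fzd1 by -0.01 (SE 0.39, edgeR adjusted p 0.984). Fzd7 was at -0.38 (SE 0.19), with an edgeR adjusted p of 0.118, and was called with total counts (0.0735) and without embryo library G12 (0.046). Fzd5, Fzd6, Fzd8 and Fzd10 gave log2 fold changes of 0.47, -0.66, -0.17 and -0.28 with standard errors of 0.56 to 0.81, too wide to place them.

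For GFP+ cells 68% of 11822 tested genes were called, 19.7% higher and 48.3% lower in embryos, and the median over all genes was -0.67 with TMM and -0.22 with DESeq2 size factors. Against that low centre the members' median was 0.82. Of 8 members tested, Fzd1, Fzd3, Fzd4 and Fzd7 were called higher and Fzd5, Fzd6 and Fzd10 lower in embryos. Fzd1 was higher by a log2 fold change of 2.21 (SE 0.46), with an edgeR adjusted p of 4.38e-05 and an exact permutation p of 0.00277, and without embryo library C12 by 1.49 (edgeR adjusted p 0.01). The other 3 passed edgeR's test and not the permutation test. Fzd7 was higher by 1.49 (SE 0.36, edgeR adjusted p 0.00034), Fzd3 by 1.20 (SE 0.33, edgeR adjusted p 0.00154) and Fzd4 by 1.98 (SE 0.79, edgeR adjusted p 0.0268), but the exact permutation p on log2 CPM was 0.317, 0.831 and 0.105, and for Fzd3 that difference was -0.07. For both Fzd3 and Fzd7, 3 of 5 embryo libraries lay above every spheroid GFP+ well and 1 had no read. Without that one Fzd3 was at 1.53 (D12 left out, edgeR adjusted p 4.96e-09) and Fzd7 at 1.87 (E12 left out, edgeR adjusted p 1.67e-07), and without A12 Fzd7 was at 0.87 (edgeR adjusted p 0.044). Fzd4 lost its call without embryo library D12, at an edgeR adjusted p of 0.324. Fzd2 was at 0.44 (SE 0.30, edgeR adjusted p 0.198) and was called with DESeq2, with its size factors and with total counts. On the low side, Fzd5 in spheroid GFP+ was at least 4.03-fold higher than the limit in embryo GFP+ (exact permutation p 6.23e-06) and Fzd10 at least 1.75-fold higher (5.82e-05). Fzd6 fell by 2.15 on the log2 scale (SE 0.66, edgeR adjusted p 0.00402, exact permutation p 0.000147). Its embryo level came from library B12 alone, and without B12 the spheroid level was at least 4.26-fold higher than the limit. Fewer genes were detected in embryo GFP+ libraries as a whole, and the part of that in these values was not tested.

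**Figure D4:**
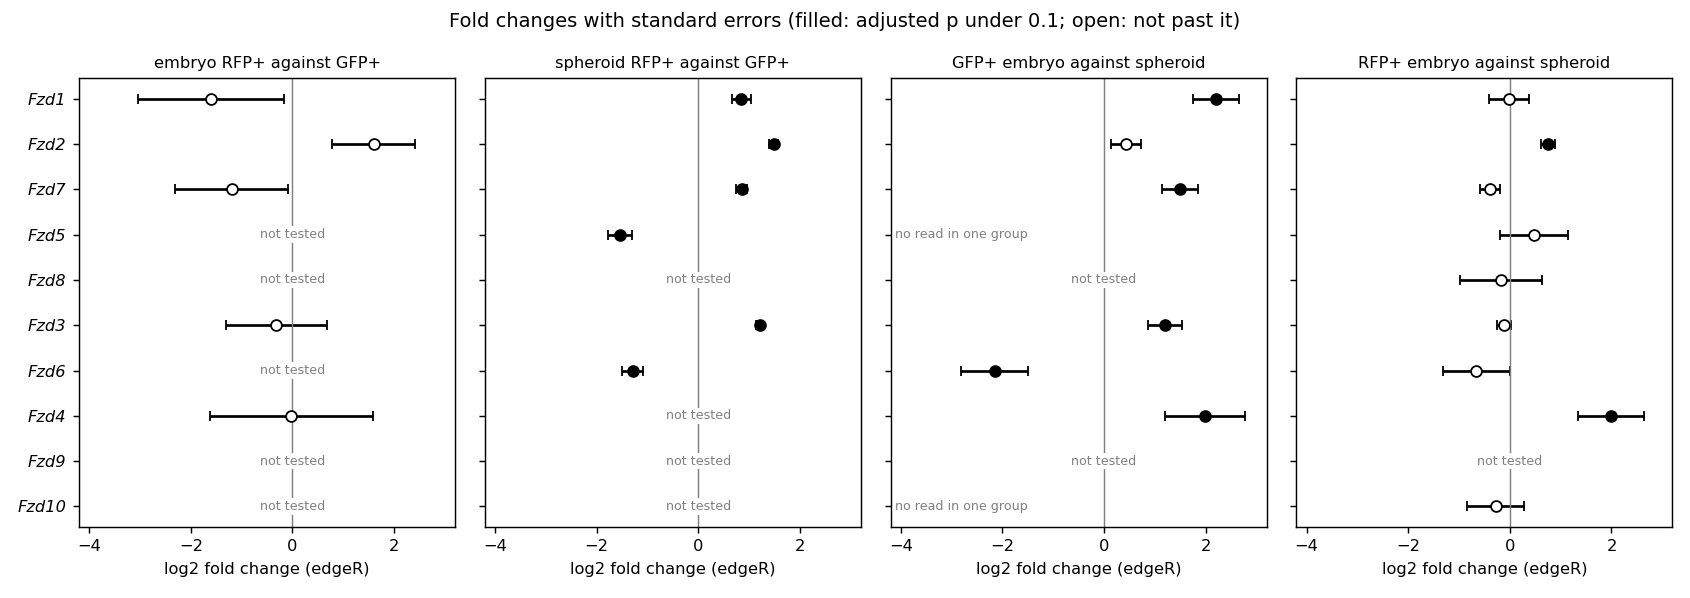
Log2 fold changes from edgeR (horizontal axis, the first group named in each panel title over the second) with standard errors for the Frizzled genes in the 4 comparisons, filled where the adjusted p is under 0.1. In spheroids Fzd1, Fzd2, Fzd3 and Fzd7 lie between 0.84 and 1.49 and Fzd5 and Fzd6 at -1.54 and -1.29, while no member tested in embryos is filled. No point is drawn for a gene with no read in one group.

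Whether the difference between RFP+ and GFP+ itself differed between embryo and spheroid was tested with standard errors derived from both fits' F statistics. Of 8182 genes 5.26% were called, and 0 of the 4 members that could be tested, Fzd1, Fzd2, Fzd3 and Fzd7. None of the 4 had an unadjusted p under 0.05 by this test, and the share of all genes under that cut is not given here. For Fzd2 the values were close, with a difference of 0.11 (SE 0.82, adjusted p 0.992), and for Fzd7, Fzd1 and Fzd3 the embryo value was lower by -2.04 (SE 1.12), -2.45 (SE 1.45) and -1.52 (SE 0.99), with adjusted p of 0.598, 0.64 and 0.701 over the edgeR fits. One edgeR fit over all 4 groups, which assumes that embryo and spheroid wells vary alike, called 54.4% of 12655 genes and 6 members, among them Fzd5 at an adjusted p of 4.13e-07. Without the filter and with separate errors, which calls 0.763% of 15069 genes, Fzd5 was at an adjusted p of 0.153 and Fzd10 at 0.168.

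The proteins that act with Frizzled moved in part with it. In spheroids, 4 of the 5 tested Wnt co-receptors were higher in RFP+ and 0 lower, against 37.8% and 40.1% of all genes, with a median log2 fold change of 0.45 against -0.02 over all genes. Ror1 and Ror2, partners of Wnt5a, rose by 1.32 (SE 0.15, edgeR adjusted p 2.38e-13) and 0.78 (SE 0.18, 7.01e-05), Lrp6 by 0.45 (SE 0.08, 6.65e-07) and Ptk7 by 0.23 (SE 0.13, 0.0933). Ryk was at 0.03 (SE 0.08, 0.723), and Lrp5 was under the filter. Smo, the class F relative that serves Hedgehog signaling, was higher in RFP+ by 1.17 (SE 0.11, edgeR adjusted p 3.16e-16). In embryos, where 10.1% of all genes were called, Ror1 alone of 5 tested co-receptors was. It went from a mean of 0.218 CPM in GFP+ to 35.2 CPM in RFP+ (edgeR adjusted p 0.0163). Between sources, 0 of 5 were called in RFP+ cells, against 42.6% of all genes. The smallest edgeR adjusted p there was 0.202, for Ryk. In GFP+ cells Ror2 (1.56, SE 0.50) and Ptk7 (1.04, SE 0.40) were higher in embryos and Ror1 lower, at 0.218 against 17.6 CPM.

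Among the genes that set how long Frizzled stays on the membrane, Rspo3, a secreted R-spondin that spares Frizzled, was higher in spheroid RFP+ by a log2 fold change of 2.48 (SE 0.25, edgeR adjusted p 9.91e-16). Znrf3, the ligase that removes Frizzled, was lower by -0.33 (SE 0.10, 0.00328), and Lgr4, the R-spondin receptor, was at -0.08 (SE 0.09, 0.394). These were the 3 tested of 9 listed. In embryos Lgr4 and Znrf3 alone were tested and 0 were called, against 10.1% of all genes. Rspo3 was lower in embryo RFP+ than in spheroid RFP+, at 1.95 against 67.2 CPM (edgeR adjusted p 1.18e-07), and Rspo1 at 0.528 against 6.43 CPM (0.0049). In GFP+ cells Lgr4 was lower in embryos, by -1.75 (SE 0.30, edgeR adjusted p 1.8e-06), and Rnf43 and Lgr5 had no read there, which makes spheroid levels at least 1.42-fold and 1.29-fold higher.

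The Dishevelled genes, whose products dock on the stretch printed above, gave no common direction. In spheroids Dvl2 was lower in RFP+ by -0.83 (SE 0.14, edgeR adjusted p 2.17e-07), Dvl3 higher by 0.26 (SE 0.11, 0.0247) and Dvl1 at 0.04 (SE 0.21, 0.871). They were listed together with Axin1, Apc, Csnk1a1, Gsk3b and Ctnnb1, 8 genes in all. Of these, 2 were higher (Ctnnb1 and Dvl3) and 4 lower (Apc, Axin1, Csnk1a1 and Dvl2). The shares of all genes were 37.8% and 40.1%. The median of the 8 was -0.10, against -0.02 over all genes. In embryos 0 of the 7 tested from this list were called, against 10.1% of all genes, Dvl1 coming nearest at an edgeR adjusted p of 0.107. In GFP+ cells Dvl2 had no read in embryos and was at least 6.47-fold higher in spheroids, Dvl1 was lower in embryos (0.71 against 6.31 CPM) and Dvl3 higher by 1.16 (SE 0.29, edgeR adjusted p 0.000507). In RFP+ cells no Dishevelled gene was called, against 42.6% of all genes. Gsk3b and Apc were lower in embryo RFP+ cells by -0.65 (SE 0.12, edgeR adjusted p 1.24e-05) and -0.62 (SE 0.17, 0.00336).

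Of the planar polarity partners, 2 of 7 tested were higher in spheroid RFP+, Prickle1 (1.24, SE 0.13) and Vangl2 (0.93, SE 0.11), and 0 lower, which is below the 77.9% of all genes called there. Tspan12, the tetraspanin that serves Fzd4, was higher in spheroid RFP+ by 1.94 (SE 0.09, edgeR adjusted p 1.07e-36), lower in embryo RFP+ by -1.37 (SE 0.34, 0.0236) and higher in embryo than spheroid GFP+ by 3.15 (SE 0.19, 4.53e-20). Of the 19 Wnt ligands, 2 could be tested between populations in each source. Wnt2, expressed in early heart muscle, was lower in embryo RFP+ by -5.60 (SE 0.82, edgeR adjusted p 0.00116), and Wnt3 was lower in spheroid RFP+ by -2.23 (SE 0.25, 6.57e-14). Wnt5a was at 0.02 (SE 0.18) in spheroids and at -0.13 (SE 1.53) in embryos. All 5 secreted inhibitors tested in spheroids were higher in RFP+, against 37.8% of all genes. The smallest adjusted p were those of Frzb (2.58, SE 0.18) and Sfrp1 (1.52, SE 0.11), which carry a Frizzled-like Wnt-binding domain, and Cer1 (2.17, SE 0.41). In embryos 1 of 5 inhibitors was called, against 10.1% of all genes. This was Sfrp5, lower in RFP+ by -5.30 (SE 1.29, edgeR adjusted p 0.02). Wls, which escorts Wnt ligands out of the cell, was higher in spheroid RFP+ by 0.18 (SE 0.07, 0.0161). Of the canonical Wnt target genes, 8 of 11 tested were higher and 2 lower in spheroid RFP+, against 37.8% and 40.1% of all genes. Among the higher was Ccnd1, which drives entry into the cell cycle, at 1.37 (SE 0.11, edgeR adjusted p 7.29e-20). The lists overlap. Dkk1 counts both as a higher inhibitor and as a higher target, and Znrf3 both as a turnover gene and as a lower target. Lgr5 and Rnf43 are also on both the turnover and the target list. In embryos 1 of 5 target genes was called, against 10.1% of all genes. Axin2 had no read in embryo GFP+ and was at least 4.61-fold higher in RFP+.

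Between sources, 19.7% of all genes were called higher and 48.3% lower in GFP+ embryo cells. Of 8 polarity genes tested 3 were higher and 2 lower, of 7 ligands 2 higher and 4 lower, of 7 inhibitors 2 higher and 5 lower, and of 13 target genes 0 higher and 11 lower. With the 8 target genes that had no read in one group set at their limit, the targets' median was -0.95. The median of -0.67 over all genes has no gene set at a limit, so the values are not directly comparable. In RFP+ cells, where 20.1% of all genes were higher and 22.5% lower in embryos, 1 target gene was higher and 6 of 13 lower, 1 inhibitor higher and 3 of 6 lower, and 2 ligands higher and 4 of 7 lower, with a median of -0.83 for the targets against -0.04 over all genes.

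Within the spheroid populations the members varied with little relation to each other. After the mean of each population was removed, Pearson's r of log2 CPM over the 83 wells over 100000 reads ran from -0.026 to 0.26 over the 15 pairs of Fzd1, Fzd2, Fzd3, Fzd5, Fzd6 and Fzd7. The highest were Fzd7 with Fzd2 and Fzd7 with Fzd3, both 0.26. The gene closest to Fzd3 among 9939 was Marcks, with r = 0.61, and the next were Fign (0.59) and Scd2 (0.57). Closest to Fzd2 were Sqle (0.52), Depdc1b (0.5) and Tpx2 (0.46), to Fzd7 Vangl2 (0.48), Fndc4 (0.43) and Hnrnpab (0.43), and to Fzd6 Cc2d2a (0.48), Eif2b2 (0.42) and Gm15708 (0.4). Fzd1 gave Mrps22 (0.43), Cited1 (0.42) and Rapgef2 (0.41), and Fzd5 gave Garnl3 (0.39), Otx2 (0.38) and Mrps14 (0.37). These wells share a depth range and, for 7 pairs of RFP+ wells, very similar counts, and the values are given as a description.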

How the data were processed

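Wells of 10 sorted cells were reverse transcribed with a template-switching primer, amplified by PCR without molecular identifiers and cut with Tn5. The values are raw read counts per gene that the authors deposited as one table. The submitters' processing notes name Trimmomatic 0.36, HISAT2 2.0.4, Subread, featureCounts 1.5.2, DESeq2 and the builds GRCm38 and mm10, and the annotation and strand setting are not given in the sources used here. Every column matched one sample by its name, with 0 left unmapped.

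Counts were tested with edgeR 4.0.16 in R 4.3.3 (quasi-likelihood F-test, TMM scaling, filterByExpr with a minimum count of 10, a minimum total of 15 and a proportion of 0.7). Only the groups compared entered each fit, with Benjamini-Hochberg adjustment across every gene in that fit and a threshold of 0.1. Each SE given with an edgeR fold change was derived as its absolute log2 value divided by the square root of its F statistic. Single members were also compared by two-sided permutation of mean log2 CPM with a prior count of 2, exact where a group had fewer than 10 wells and otherwise with 100000 resamples. These p-values are unadjusted. Shares of wells have Wilson 95% intervals, which like the limit of 3 reads cover counting error only. Exon-union lengths and gene spans came from GENCODE M21 on GRCm38, and 96.8% of symbols were found there. Alternatives were DESeq2 1.42.0, its size factors, total counts, no filter, a threshold of 0.05, each embryo library left out, wells under 100000 reads left out, near-identical wells summed and plate row as a term. Adjusted deviances, the test of differences without a filter and the limits with one embryo library left out were added after seeing the data. The edgeR step was tested on simulated counts.

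All 10 members are named. Co-receptors, turnover genes and Dishevelled genes are given by name, in other Wnt lists up to 3 genes per comparison with the smallest adjusted p, and for likeness the 3 genes with the highest r. The members and lists were chosen with earlier results of these data known. The 4 comparisons share groups and are not independent of each other. One sequence is not reported here.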

Additional observations from a re-analysis of the deposited data

Results flagged for a closer look

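Fzd6 in embryo GFP+ library B12, at 13.07 CPM from 30 reads, stood apart from the other 4 libraries of its group, all at 0. This was 1 of 15 groups examined. The flag rests on the gap to the next value as a share of the range. That share is 1 wherever the other libraries are all at 0, so no chance rate is given.

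In one edgeR fit over the 4 groups, the log2 fold change of RFP+ against GFP+ in embryos minus that in spheroids was past the threshold for 6 members. It was -2.402 for Fzd1, -1.48 for Fzd3 and -2.064 for Fzd7, lower in embryos, and 7.655 for Fzd5, 4.548 for Fzd8 and 5.712 for Fzd10, higher in embryos. The last 3 had no read in embryo GFP+ libraries, so the size of their values depends on the prior count. That fit called 54.4% of all genes and gave embryo and spheroid wells one shared spread. With separate standard errors only Fzd1, Fzd2, Fzd3 and Fzd7 could be tested, and 0 were called, against 5.26% of all genes. Without the filter Fzd5, Fzd8 and Fzd10 could be tested that way too and were not called, against 0.763% of all genes.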

How the results depend on the processing

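No paired analysis was possible because each well occurs in 1 group only, so the groups share no replicate number. In embryo RFP+ against GFP+, the members called rose from 0 to 1 with DESeq2, 2 with no filter and 1 with adjusted deviances. All genes called went from 858 (10.1% of those tested) to 1936 (17.7%), 2000 (13.2%) and 1765 (20.8%) in that order. Without one embryo library they ran from 613 to 1044, with 0 members. In spheroids 13109 of 21827 tested genes were called with no filter, against 7747 of 9940 with it, so the share called was lower without the filter. Between RFP+ embryo and spheroid, leaving out one embryo library gave 1 to 3 members, with 1 without H11, and between GFP+ sources 6 to 8. The test of differences called 6 members in one fit over 4 groups, which covered all but Fzd9 and called 54.4% of 12655 genes. With separate standard errors it called 0 among Fzd1, Fzd2, Fzd3 and Fzd7, the only members covered, and 5.26% of 8182 genes. The member counts therefore rest on unlike sets. Fzd3 in GFP+ cells, called higher in embryos by edgeR, had a difference of mean log2 CPM of -0.07, and -0.46 with a prior count of 0.5. The other changes of direction were of values not called. Fzd4 in embryos went to 0.006472 with total counts and 0.06676 with no filter, and ran from -0.6715 to 0.3828 with one library left out. Fzd1 in RFP+ cells between sources went to 0.01476 with DESeq2, 0.01701 with its size factors and 0.02676 with adjusted deviances, and ran from -0.5009 to 0.3802 with one library left out. In the same comparison Fzd5 ran from -0.2067 to 0.7703, Fzd10 from -0.6551 to 0.06143 and Fzd8 from -1.349 to 0.212. The embryo difference of mean log2 CPM ran from -0.3881 to 1.778 for Fzd3 and from -1.285 to 0.7155 for Fzd7. The cause was not tested. Of 321 fitted fold changes under alternatives, 300 kept direction and side of the threshold, 7 passed it newly, 2 lost it and 12 changed sign. Of 80 shares of wells recomputed with at least 3 reads or after thinning, 19 moved outside the Wilson interval of the share first given. With 5 and 4 embryo libraries, levels of a few reads limit Fzd4, Fzd5, Fzd6, Fzd8 and Fzd10.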

Other observations

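In plate columns 3 and 4, 7 pairs of spheroid RFP+ wells in the same row had nearly the same counts, with Pearson's r of 0.976 to 0.994 between their log2 values. A chi-square of their counts per degree of freedom was 1.33 to 2.29, above the sampling noise of one library counted again. That comparison cannot show that the wells are independent, because it covers recounting of one library only. Shared material or carry-over between the wells of a pair was not tested. They were kept as separate wells, and summing them left the 6 spheroid calls of Frizzled genes in place.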
